A study of Homo sapiens with 6 samples.

Results

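Genes for small membrane proteins that cross the lipid bilayer 4 times were examined in a ribosome footprint study of NCI-H1299 cells. They are the tetraspanins, the claudins, the TM4SF proteins, the epithelial membrane proteins (EMP) with PMP22, the CMTM proteins, and occludin with the MARVELD proteins. They were taken by gene symbol, and 52 of the 15243 genes in the authors' deposited table matched. The symbol rule used no measured value, but it was set with earlier results of these data known. Ribosome footprint sequencing (Ribo-seq) reads the pieces of mRNA that translating ribosomes cover. The 6 samples were 3 with a knockdown hairpin directed at ALDH18A1 (shALDH18A1) and 3 controls (shControl, called puro in the design text), all in NCI-H1299, an established lung carcinoma cell line without p53. ALDH18A1 encodes the proline synthesis enzyme P5CS, and the title of the series names it as a non-canonical binder of RNA. Neither the hairpin sequences, nor their number, nor whether the lines were clones is given in the sources used here.

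The table holds 1 finished comparison. Each gene has a mean normalized count over the libraries (below, mean count, which is not scaled to gene length), a log fold change, the standard error (SE) of that change, and p-values, raw and adjusted. Data of single samples were not analysed here, so no replicate values, library depths or counting intervals are given. The sources used here state neither which group is the reference nor whether the fold change is one of footprints or of footprints over RNA. The base of the log was taken as 2 from the column layout. Positive and negative therefore name the deposited sign and do not say which of shALDH18A1 and shControl was higher. A gene was called at a deposited adjusted p under 0.05, ± gives the deposited SE, intervals are 95%, and fold changes are on the log2 scale. The targeted gene itself was not called, at −0.19 ± 0.12 with an adjusted p of 0.173 per the authors' deposited table. The keratin genes KRT8 and KRT18, which mark simple epithelia, had mean counts of 6396 and 6869 in the authors' deposited table. EPCAM stood at 11.4, E-cadherin (CDH1) at 1.95 and the lung lineage factor NKX2-1 at 3.24 in the authors' deposited table, so these epithelial and lung adenocarcinoma markers were near the low end. Of markers of other cells, PECAM1 stood at 1.56, COL3A1 at 2.50, HBB at 0.896 and COL1A1 at 26.9 in the authors' deposited table. The mesenchymal filament gene VIM had a mean count of 22046 in the authors' deposited table.

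These families share a membrane layout but belong to several unrelated superfamilies. Tetraspanins gather integrins, proteases and receptors into membrane microdomains and are abundant on endosomes and extracellular vesicles. Claudins form the strands of tight junctions that set which ions pass between epithelial cells, and occludin sits in the same junctions and shares a MARVEL domain with the MARVELD proteins. EMP proteins and PMP22 are close relatives of the claudins, TM4SF proteins resemble tetraspanins only in layout, and CMTM proteins, which also carry a MARVEL domain, act in receptor trafficking. All are made on ribosomes bound to the endoplasmic reticulum.

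Of the 52 members, 27 were called positive and 7 negative per the authors' deposited table, and 18 were not called. Over all genes, 28.9% were called positive, 29.4% negative and 58.4% either way in the authors' deposited table. The members' shares were 51.9% positive and 13.5% negative in the authors' deposited table. Their median log2 fold change was 0.60, against 0.02 over all genes in the authors' deposited table. Beyond 1 on the log2 scale there were 19 members called positive and 4 called negative in the authors' deposited table, where 14.7% of all genes were called positive and 8.97% negative at that size. The readthrough entry TM4SF19-DYNLT2B shares its span with TM4SF19, and without it the negative count was 6 of 51 in the authors' deposited table. Without the 11 members whose annotated span overlaps that of another entry, the counts became 23 positive and 3 negative of 41 in the authors' deposited table, a setting chosen after seeing the data.

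**Figure D1:**
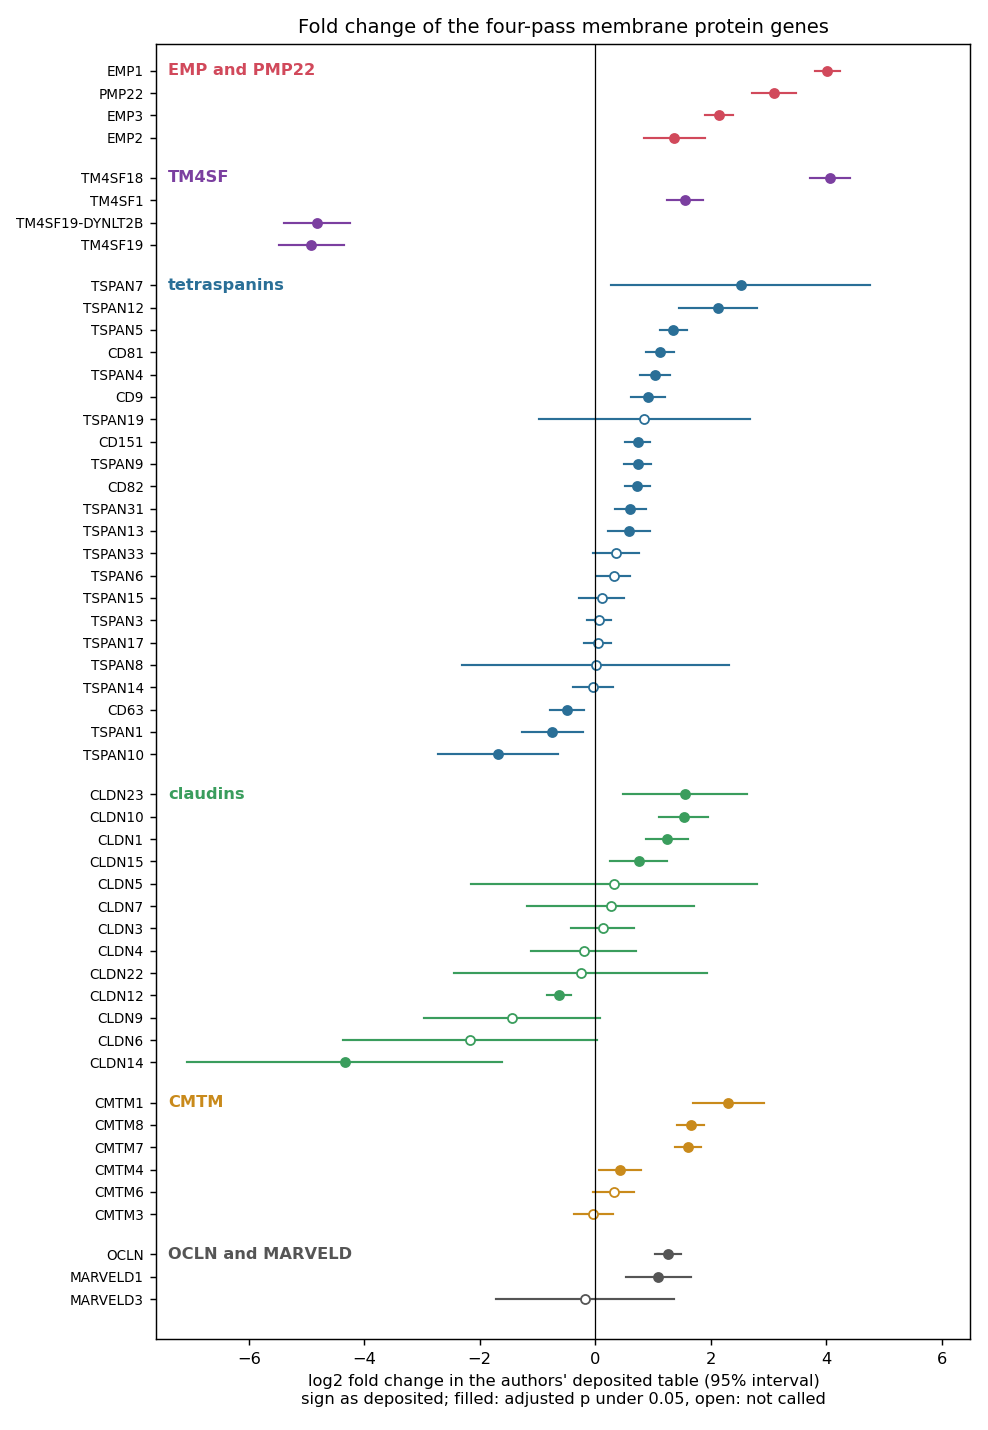
Log2 fold change of each of the 52 members in the authors' deposited table on the horizontal axis, grouped by family, with points for the deposited value, lines for the 95% interval, filled points for an adjusted p under 0.05 and open points otherwise. All 4 EMP and PMP22 genes lie right of 0, TM4SF genes lie far out on both sides, and most open points with long lines are claudins.

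The EMP family with PMP22 was the only one of the 6 families with every member called positive in the authors' deposited table. EMP1, an epithelial membrane protein gene tied to growth and adhesion, lies on chromosome 12 from 13196726 to 13219941 in GRCh38 on the forward strand. It stood at 4.02 ± 0.11 in the authors' deposited table (interval 3.80 to 4.24, adjusted p = 4.47e-274), a 16.2-fold difference at a mean count of 2118. By the size of the deposited statistic, the fold change over its SE, EMP1 held rank 3 of all 15243 genes. PMP22, which encodes the peripheral myelin protein whose gene dosage underlies a hereditary neuropathy, was at 3.09 ± 0.19 in the authors' deposited table (interval 2.71 to 3.47, adjusted p = 1.08e-55). EMP3 was at 2.15 ± 0.12 in the authors' deposited table (interval 1.91 to 2.39, adjusted p = 9.67e-66), with a mean count of 5776. EMP2, which is known to affect integrin trafficking, was at 1.37 ± 0.27 in the authors' deposited table (interval 0.85 to 1.89, adjusted p = 1.12e-06). The 4 intervals do not overlap, so the 4 values are set apart by more than the deposited errors, although no test of the differences was run. None of the 4 spans overlaps that of another entry.

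The TM4SF genes held the most positive and the most negative members. TM4SF18, a little studied member of the group (chromosome 3, 149318498 to 149333636, reverse strand), was at 4.07 ± 0.18 in the authors' deposited table (interval 3.72 to 4.41, adjusted p = 5.73e-115). Its mean count was 160.6 in the authors' deposited table, so the fold rests on far fewer reads than that of EMP1. TM4SF1, the tumour antigen L6 of many carcinomas, lies next to it (149369022 to 149377649, reverse strand) and was at 1.56 ± 0.16 in the authors' deposited table (interval 1.24 to 1.87, adjusted p = 1.71e-21), with a mean count of 10799. The 2 neighbours were thus both positive, with intervals that do not overlap.

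TM4SF19, known from maturing osteoclasts, lies elsewhere on chromosome 3 (196323547 to 196338388, reverse strand) and was at −4.92 ± 0.29 in the authors' deposited table (interval −5.48 to −4.35, adjusted p = 1.38e-62), a 30.2-fold difference. It held rank 16 from the bottom among all 15243 fold changes per the authors' deposited table, at a mean count of 72.2. The readthrough entry TM4SF19-DYNLT2B was at −4.82 ± 0.29 in the authors' deposited table (interval −5.39 to −4.24). The 2 entries share 14842 bases of annotated span, which is the whole of TM4SF19, so they are not separate evidence. DYNLT2B, which encodes a dynein light chain and shares 2156 bases with the readthrough entry, was at −1.14 ± 0.22 in the authors' deposited table (interval −1.57 to −0.71). How reads on the shared exons were split is not given in the sources used here.

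The promoters of the most extreme members and of the TM4SF neighbours are shown because these genes carry the largest fold changes or lie side by side with the same sign. Each stretch is the 250 bases before the annotated start, 5′ to 3′ on the gene's strand, from RefSeq on GRCh38.p14, at chr12:13196476-13196725 for EMP1, chr3:149333637-149333886 for TM4SF18, chr3:149377650-149377899 for TM4SF1 and chr3:196338389-196338638 for TM4SF19. Capitals mark TGANTCA, a pattern that takes in the site AP-1 factors bind, and CATTCC, the core that TEAD factors bind, on either strand. TATAAA, the TATA box core, was searched too and is in none of the 4.
EMP1: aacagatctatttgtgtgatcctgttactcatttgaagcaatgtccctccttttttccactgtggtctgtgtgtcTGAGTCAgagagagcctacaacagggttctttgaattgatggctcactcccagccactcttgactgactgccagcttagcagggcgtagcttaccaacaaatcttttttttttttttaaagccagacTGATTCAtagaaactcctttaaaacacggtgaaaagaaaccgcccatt
TM4SF18: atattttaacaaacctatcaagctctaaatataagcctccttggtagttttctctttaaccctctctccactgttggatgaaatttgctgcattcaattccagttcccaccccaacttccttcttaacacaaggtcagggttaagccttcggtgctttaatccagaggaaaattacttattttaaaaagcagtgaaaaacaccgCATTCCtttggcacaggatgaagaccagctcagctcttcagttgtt
TM4SF1: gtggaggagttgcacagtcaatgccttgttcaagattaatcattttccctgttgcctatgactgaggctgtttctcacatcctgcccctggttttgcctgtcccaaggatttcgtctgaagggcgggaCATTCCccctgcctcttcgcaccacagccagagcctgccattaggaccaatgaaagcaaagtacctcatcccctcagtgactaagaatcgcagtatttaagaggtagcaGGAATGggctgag
TM4SF19: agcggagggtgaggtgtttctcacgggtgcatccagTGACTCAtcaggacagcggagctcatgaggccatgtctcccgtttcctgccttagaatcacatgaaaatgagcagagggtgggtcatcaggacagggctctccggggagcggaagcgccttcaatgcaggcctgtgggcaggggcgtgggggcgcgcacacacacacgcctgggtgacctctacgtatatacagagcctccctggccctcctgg
EMP1 has TGANTCA with first bases 175 and 48 bases before the start, and TM4SF19 has it 214 bases before. CATTCC begins 46 bases before the start of TM4SF18, and it begins 122 and 13 bases before that of TM4SF1. Promoters were given for 42 of the 52 members, some with several starts. TGANTCA was in 6 of these 42 genes (14.3%), against 6.25% of the 11961 genes of the table with a promoter. Of these, EMP1 and CLDN15 were called positive, TM4SF19, CD63 and TSPAN10 were called negative, and CLDN4 was not called. CATTCC was in 10 of 42 (23.8%), against 13.4%, and TATAAA in 1 of 42 (2.38%), against 8.92%. The motifs do not overlap one another in the 4 stretches. They were picked after the promoters had been read, and a match describes letters, not binding.

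Tetraspanins numbered 22 in the table, of which 11 were called positive, 3 negative and 8 not at all, with a median of 0.60 in the authors' deposited table. The share called either way was 63.6%, near the 58.4% of all genes in the authors' deposited table. By sign, 11 of the 22 were positive and 3 negative, against 28.9% and 29.4% of all genes in the authors' deposited table. Whether the tetraspanins differ from all genes was not tested. Among the tetraspanins of the cell surface, CD81, a receptor partner on lymphocytes and a hepatitis C virus receptor, was at 1.12 ± 0.13 in the authors' deposited table (interval 0.88 to 1.37, adjusted p = 5.15e-18). CD9, known for its part in cell fusion, was at 0.92 ± 0.15 in the authors' deposited table (adjusted p = 8.95e-09). CD151, which binds laminin-binding integrins, was at 0.74 ± 0.11 per the authors' deposited table, and the metastasis suppressor CD82 was at 0.73 ± 0.11. These 4 intervals overlap one another, with values from 0.73 to 1.12. CD63, the tetraspanin of late endosomes and exosomes, was called with the other sign, at −0.49 ± 0.15 in the authors' deposited table (interval −0.79 to −0.20, adjusted p = 0.00246). Its span overlaps that of RDH5, which was not called in the authors' deposited table, by 1171 bases.

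TSPAN5 had the smallest p of the positive tetraspanins, at 1.36 ± 0.12 in the authors' deposited table (interval 1.12 to 1.59, adjusted p = 6.27e-28). It belongs to the 6 tetraspanins known as TspanC8, which escort the protease ADAM10 out of the endoplasmic reticulum. Of those 6, TSPAN5 was called positive, TSPAN10 was called negative at −1.68 ± 0.53 per the authors' deposited table, and TSPAN14, TSPAN15, TSPAN17 and TSPAN33 were not called. The not-called ones ran from −0.04 for TSPAN14 to 0.36 for TSPAN33 in the authors' deposited table. TSPAN10 had a mean count of 17.6, against 329.5 for TSPAN5, so its interval was wide, from −2.73 to −0.64 in the authors' deposited table. ADAM10 itself, named after its value was seen, was at 0.75 ± 0.11 in the authors' deposited table.

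TSPAN4, which organises migrasomes on the trailing fibres of moving cells, was at 1.03 ± 0.13 in the authors' deposited table (adjusted p = 6.71e-14). TSPAN12, a co-receptor in Norrin signalling through Frizzled, was at 2.13 ± 0.34 per the authors' deposited table with a mean count of 18.0. TSPAN9 was at 0.73 ± 0.12 and TSPAN13 at 0.58 ± 0.18 in the authors' deposited table. TSPAN31 was at 0.61 ± 0.13 per the authors' deposited table and shares 2493 bases of its span with CDK4 on the other strand, which was at −0.94 ± 0.15. TSPAN1 was negative at −0.74 ± 0.27 per the authors' deposited table, and its span overlaps that of POMGNT1 by 7807 bases and that of P3R3URF-PIK3R3 by 1402. POMGNT1 was not called (0.19 ± 0.10), and P3R3URF-PIK3R3 was at −0.67 ± 0.12, in the authors' deposited table. TSPAN7 was called at the edge, at 2.52 ± 1.15 with an adjusted p of 0.0479 in the authors' deposited table. TSPAN3, TSPAN17 and TSPAN15 were measured with SEs of 0.11 to 0.20 and lay between 0.04 and 0.11 in the authors' deposited table. TSPAN6 lay just outside the threshold (0.32 ± 0.15, adjusted p = 0.0548 in the authors' deposited table).

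Of 13 claudins in the table, 4 were positive, 2 negative and 7 not called, with a median of 0.13 and a median SE of 0.55 in the authors' deposited table. All but 2 of them lay below the median count of all genes. Of all 13 claudins, 46.2% were called, against 58.4% of all genes and 45.0% of genes below that count in the authors' deposited table. The 46.2% includes the 2 claudins above that count, CLDN1 and CLDN12, which were both called. CLDN1, a claudin that seals the paracellular space, was at 1.24 ± 0.18 in the authors' deposited table (interval 0.89 to 1.60, adjusted p = 5.81e-11). CLDN10 and CLDN15, both known to form ion channels between cells, were at 1.53 ± 0.22 and 0.75 ± 0.25 in the authors' deposited table. The span of CLDN10 overlaps that of DZIP1, which was at 2.00 ± 0.30 in the authors' deposited table, by 1558 bases. CLDN23 was at 1.55 ± 0.55 in the authors' deposited table. CLDN12, with a mean count of 1010, was negative at −0.63 ± 0.11 in the authors' deposited table (interval −0.83 to −0.42, adjusted p = 1.41e-08). CLDN14 was called negative at −4.34 ± 1.39 in the authors' deposited table, but at a mean count of 1.72 and with an interval from −7.06 to −1.62. The classical epithelial claudins CLDN3, CLDN4 and CLDN7 were at 0.13 ± 0.28, −0.20 ± 0.46 and 0.27 ± 0.74 per the authors' deposited table, with mean counts of 39.4, 9.33 and 3.02. The interval of CLDN7, from −1.18 to 1.72 in the authors' deposited table, includes the value of CLDN1.

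Occludin (OCLN), a core membrane protein of tight junctions, was at 1.26 ± 0.12 in the authors' deposited table (interval 1.03 to 1.49, adjusted p = 2.10e-25), with a mean count of 900.8. RefSeq annotates a pseudogene copy, OCLNP1, and how reads common to both were counted is not given in the sources used here. MARVELD1 was at 1.09 ± 0.29 and MARVELD3 at −0.18 ± 0.79 in the authors' deposited table, the second not called at a mean count of 2.85. Among the CMTM genes, 4 of 6 were called positive and 0 negative in the authors' deposited table, also 0 at an unadjusted p under 0.05. Of all genes, 28.9% were called positive, 29.4% negative and 58.4% either way, against 66.7% of the 6 CMTM genes in the authors' deposited table. Whether so few genes differ from all genes was not tested. CMTM8 and CMTM7, both linked to removal of the EGF receptor from the surface, were at 1.65 ± 0.12 and 1.61 ± 0.11 per the authors' deposited table, and their intervals overlap almost wholly. CMTM6, which protects PD-L1 from degradation, was not called at 0.32 ± 0.18 per the authors' deposited table, and CMTM4, which can stand in for it, was at 0.43 ± 0.18 with an adjusted p of 0.0322. CMTM3 was at −0.03 ± 0.17 per the authors' deposited table and lies within the span of CMTM4 on the other strand. CMTM1 was at 2.31 ± 0.31 per the authors' deposited table at a mean count of 19.8. It lies wholly within the readthrough gene CKLF-CMTM1, which was at 0.79 ± 0.19 in the authors' deposited table.

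Members that lie within 200 kb of each other formed 7 groups holding 16 members. CMTM8 and CMTM7 lie side by side on chromosome 3 with nearly equal values, whereas CMTM6, the next gene, was lower with an interval from −0.03 to 0.67 in the authors' deposited table that overlaps neither. CD151 and TSPAN4 lie 4020 bases apart on chromosome 11, with overlapping intervals of 0.52 to 0.95 and 0.77 to 1.29 in the authors' deposited table. On chromosome 16 the values of CMTM1, CMTM4 and CMTM3 spread from 2.31 to −0.03 in the authors' deposited table. CLDN9 with CLDN6, and CLDN3 with CLDN4, had no called member. Neighbours had overlapping intervals in some of the 7 groups and not in others.

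**Figure D2:**
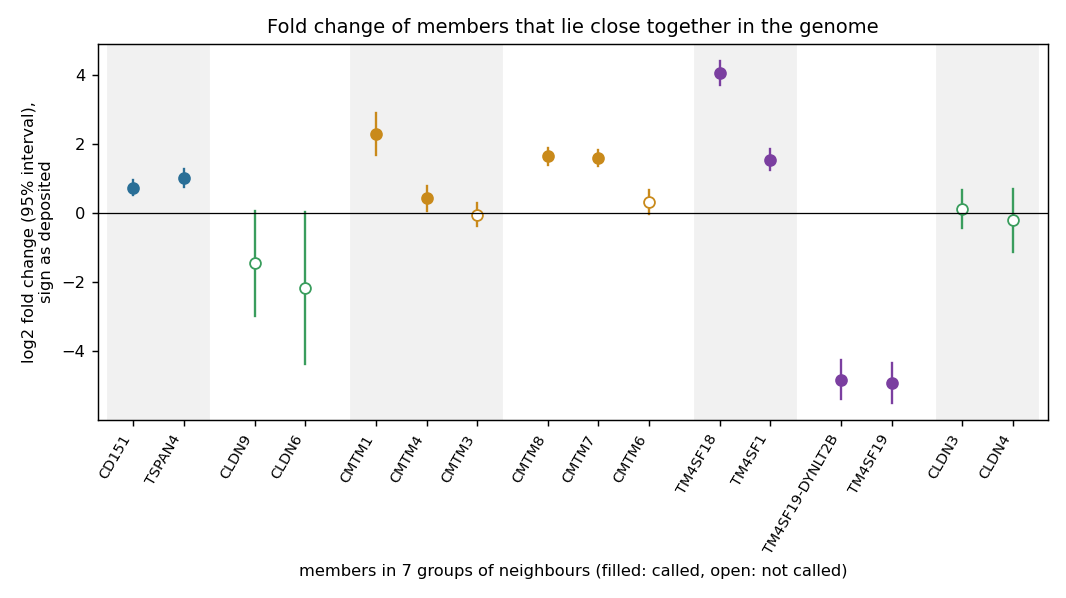
Log2 fold change in the authors' deposited table (vertical axis, lines are 95% intervals) of the 16 members in 7 groups within 200 kb, each group a shaded or white band, filled points called and open points not called. CMTM8 and CMTM7 sit at the same height, TM4SF18 stands above TM4SF1, and TM4SF19 and its readthrough entry sit together near −4.9.

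Genes with a higher mean count were called more often. At or above the median count of 150.2, 19 of 25 members were called, 17 of them positive, against 71.8% of all genes in the authors' deposited table. Below it 15 of 27 members were called, against 45.0% of all genes in the authors' deposited table. Of members at or above the median, 68.0% were called positive, whereas 30.9% of all genes there were in the authors' deposited table. Among the 11 members with a mean count under 10, TSPAN7 and CLDN14 were called, and the SEs ran from 0.46 to 1.39 in the authors' deposited table. Of all genes, 12.2% were called in the lowest of 10 equal bins by count, which ended at 3.53. In the next bin, which ended at 14.7, 37.6% of all genes were called in the authors' deposited table. The 9 members that were not called at a count of 10 or more lay between −0.04 and 0.36 in the authors' deposited table. In the highest of 10 equal bins of genes by count, all 8 members were called, 7 positive and CD63 negative, against 75.0% of all genes in that bin in the authors' deposited table. The median of all genes there was −0.11 in the authors' deposited table.

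**Figure D3:**
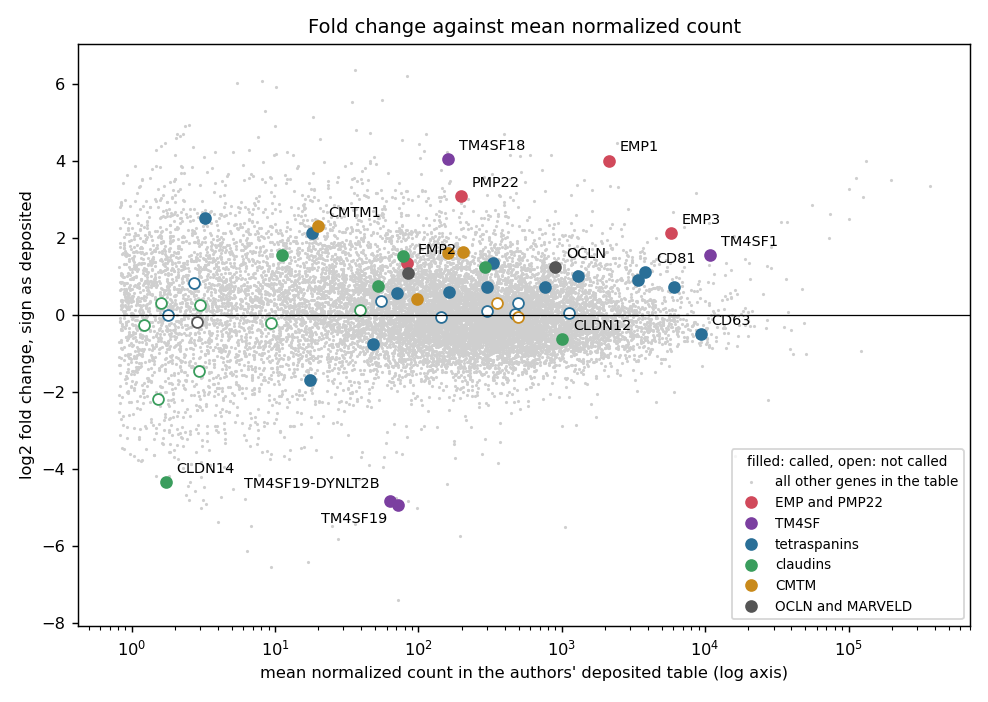
Log2 fold change (vertical axis) against mean normalized count (horizontal, log axis) per the authors' deposited table, with members coloured by family and all other genes in grey. The spread of grey points narrows to the right, and TM4SF19 lies far below 0 at a count of 72.2. Ranks by fold change from the top were taken among genes at or above the median count. They were 8 for TM4SF18, 9 for EMP1, 37 for PMP22, 128 for EMP3, 284 for CMTM8, 305 for CMTM7 and 333 for TM4SF1.

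Genes that work with these proteins, or share their layout, were taken as lists by function, with no test of the lists. The lists were made with earlier results of these data known. On the list of other four-pass families, 23 of 29 genes were called positive and 0 negative per the authors' deposited table, with a median of 1.03. Over all genes, 28.9% were called positive and 29.4% negative in the authors' deposited table. At an unadjusted p under 0.05 the negative count was also 0, and the 6 genes not called ran from −0.28 to 1.40 in the authors' deposited table. PLP2, a proteolipid protein of the endoplasmic reticulum with a MARVEL domain, was at 1.82 ± 0.10 per the authors' deposited table, and VKORC1, the vitamin K epoxide reductase, was at 1.73 ± 0.15. SYNGR1, a synaptic vesicle protein, was at 2.53 ± 0.22 in the authors' deposited table. STEAP3 (1.42 ± 0.10 in the authors' deposited table) and MYADM cross the membrane more often than 4 times, and without them 21 of 27 were positive with the same median of 1.03. Connexins and pannexins, which have the same layout and form channels between or out of cells, had 3 positive, 2 negative and 6 not called of 11 in the authors' deposited table, most at low counts. PANX1 was negative (−0.59 ± 0.11) and GJC1 positive (0.41 ± 0.12) in the authors' deposited table. Whether the four-pass families differ from other membrane proteins was not tested.

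Tetraspanin partners and regulators were split, with 11 positive, 7 negative and 9 not called of 27 in the authors' deposited table (median 0.13). Their shares were 40.7% positive and 25.9% negative, against 28.9% and 29.4% of all genes in the authors' deposited table. The surface glycoprotein BSG was at 2.06 ± 0.12 and the growth factor receptor EGFR at 2.21 ± 0.13 in the authors' deposited table. TSG101, of the sorting complex that buds vesicles into endosomes, was at −0.99 ± 0.10 and the vesicle adaptor SDCBP at −0.69 ± 0.08 in the authors' deposited table. PDCD6IP (−0.71 ± 0.10) and CHMP4B (−0.81 ± 0.14), which act in the same budding, had the same sign per the authors' deposited table and were named after their values were seen. The other negative genes of the list, also named so, were the receptor kinase gene MET (−0.51 ± 0.10), the syndecan gene SDC4 (−0.41 ± 0.13) and the integrin chain gene ITGA5 (−0.42 ± 0.08) in the authors' deposited table. Of the integrin chains on the list, ITGA3 (0.87 ± 0.12), ITGA6 (0.62 ± 0.08) and ITGB4 (2.13 ± 0.44) were positive and ITGA5 negative in the authors' deposited table. ITGB1 (−0.25 ± 0.15) and ITGA2 (0.29 ± 0.16) were not called in the authors' deposited table. The other positive genes were ADAM10, CD47 (1.09), LAMP2 (0.43), CD44 (0.45), DPP4 (1.45) and IGSF8 (0.37) in the authors' deposited table. They and the integrin chains were named after their values were seen.

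Tight junction scaffolds and other junction proteins went both ways in equal number, with 9 positive, 9 negative and 12 not called of 30 in the authors' deposited table (median 0.04). The 30.0% in each sign was close to the 28.9% positive and 29.4% negative of all genes in the authors' deposited table. TJP1, the scaffold ZO-1 that ties claudins and occludin to actin, was at −1.43 ± 0.08 in the authors' deposited table. Its sign was opposite to that of CLDN1 and OCLN and the same as that of CLDN12. CGN (1.37 ± 0.12) and CGNL1 (0.90 ± 0.13) of the same list, named after their values were seen, were positive in the authors' deposited table. YBX3, which binds ZO-1, was at −1.32 ± 0.07 and the angiomotin relative AMOTL2 at −1.18 ± 0.05 in the authors' deposited table. JAM3, a single-pass junction adhesion molecule, was positive at 2.11 ± 0.10 in the authors' deposited table. A list of epithelial and mesenchymal identity genes had 4 positive, 2 negative and 7 not called of 13 in the authors' deposited table. The shares of this list were 30.8% positive and 15.4% negative, against 28.9% and 29.4% of all genes in the authors' deposited table. The positive ones were the epithelial keratin genes KRT18 (0.76 ± 0.10) and KRT8 (0.41 ± 0.08) and the mesenchymal regulators ZEB2 (1.19 ± 0.16) and TWIST1 (0.55 ± 0.20) in the authors' deposited table. The negative ones were the mesenchymal genes VIM (−0.28 ± 0.04) and CDH2 (−0.26 ± 0.10) in the authors' deposited table. The epithelial genes CDH1 and EPCAM were not called. Tetraspanins under other symbols had low counts throughout, with CD37 at 1.55 ± 0.61 and CD53 at −3.08 ± 1.00 the only 2 called of 4 in the authors' deposited table.

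**Figure D4:**
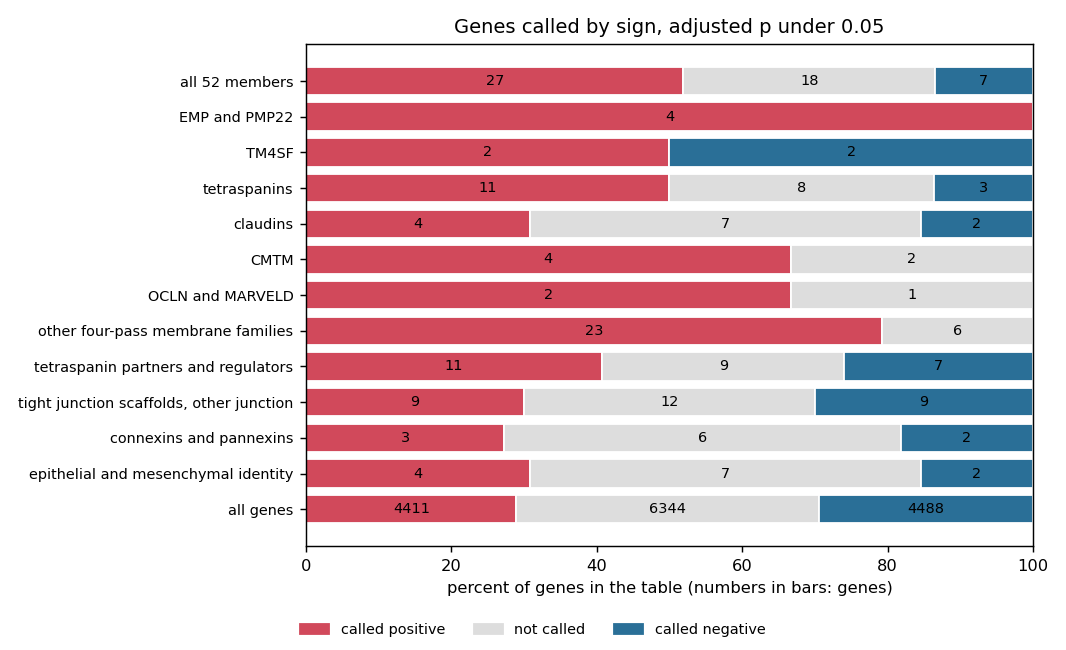
Percent of genes in each family or list (horizontal axis) called positive, not called and called negative at an adjusted p under 0.05 per the authors' deposited table, with numbers of genes in the bars and all 15243 genes at the bottom. The EMP and PMP22 bar is wholly positive, the other four-pass families have no negative part, and the tight junction scaffolds are close to all genes.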

How the data were processed

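The data used were 1 table in which the authors compared Ribo-seq libraries of NCI-H1299 cells. Per the submitters' processing notes, fastp 0.23.2, STAR 2.7.10a and featureCounts were used with hg38; the sources used here give no roles, annotation, strandedness or footprint filters. The first value column, headed baseMean, is a deposited signal. From the column layout it was read as each gene's mean count after scaling by size factors. The deposited fold change and SE were read as log2 values. The deposited statistic is a score equal to the fold change over its SE (largest difference 1.49e-13). The deposited adjusted p-value matches Benjamini-Hochberg adjustment to within 7.42e-06. Use of strand and of reads shared between genes can move the values of overlapping genes.

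Calls used the deposited adjusted p under 0.05 over all 15244 entries; 1 repeated symbol was kept with its smallest p. Intervals are the fold change with the normal quantile times SE. The planned count tests did not apply. Groups came from the sample titles. No values per sample exist in the table (0 columns left out), so depth is unknown and precision rests on the deposited SE. All 52 members matched RefSeq (GRCh38.p14) by Entrez ID; 51 are protein-coding. RefSeq lists 73 protein-coding members, and 22 of them were not analysed here. Full values were planned for the 3 members with the smallest p in each sign of each family and for called members at or above the median count beyond 1 on the log2 scale (26 genes), and for up to 4 genes of each list. The members, lists and motifs were chosen with earlier results of these data known. Alternatives were other thresholds, fold minimums, adjustments, centring and filters. The step from fold change and SE to a call with Benjamini-Hochberg adjustment was tested on simulated data. These data held far fewer changed genes than were called here, and the other steps were not simulated. Python 3.11.15, numpy 2.4.6, pandas 2.3.3, scipy 1.17.1 and matplotlib 3.10.9 were used.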

Additional observations from a re-analysis of the deposited data

How the results depend on the processing

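The 27 positive members ranged from 18 to 28 and the 7 negative ones from 2 to 9 over the settings tried. Centring on the median took 0.02 off each value, less than the distance from 0 of any of the 26 named members. Their signs could therefore not change under it. A minimum of 1 on the log2 scale left 4 negative members, 6 tetraspanins, 5 tetraspanin partners, 8 junction genes, 3 connexins and pannexins, 14 other four-pass genes and 1 identity gene. The authors' marks gave 4 negative members, 6 tetraspanins, 5 partners, 8 junction genes, 14 other four-pass genes and 1 identity gene. A minimum fold of 1.5 left 2 identity genes. Bonferroni adjustment left 3 negative members, 8 tetraspanins, 3 claudins, 1 of OCLN and MARVELD, 0 tetraspanins under other symbols and 1 connexin or pannexin, and 11 members were no longer called (CD63, TSPAN1, TSPAN7, TSPAN10, TSPAN13, TSPAN31, CLDN14, CLDN15, CLDN23, CMTM4 and MARVELD1). An adjusted p under 0.01 and Benjamini-Yekutieli adjustment each left 1 tetraspanin under another symbol. Genes at or above the median count alone gave 2 negative members, 2 TM4SF genes, 2 claudins, 2 CMTM genes, 1 of OCLN and MARVELD, 0 tetraspanins under other symbols, 2 connexins and pannexins and 15 other four-pass genes, since fewer genes were tested. Without members whose span overlaps another entry, 3 negative ones were left. The other 133 counts stayed within 1.5 times. Read as a natural log, the value of EMP1 would be 5.80 on the log2 scale. No paired analysis was possible because the table holds no values per sample, and leaving out replicates could not be run for the same reason.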
